A study of Mus musculus with 6 samples.

Results

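The genes described here make, recycle and spend glutathione, the tripeptide thiol that cells hold as their main soluble antioxidant. They are the 9 listed genes Slc7a11, Gclc, Gclm, Gss, Gsr, Gpx1, Gpx3, Gpx4 and Glrx, which were chosen by name, and all 9 of them were found among the 25033 gene symbols measured by RNA sequencing. The inhibitor group had 3 libraries, of green fluorescent (GFP+) cells sorted from the bone marrow of mice that had received haematopoietic stem cells (HSCs) given an inhibitor of the microRNA miR-31-5p. The control group had 3 libraries, of cells sorted the same way after transplant of HSCs given a control RNA. All 6 libraries were from C57BL/6J mice with a labelled age of 6 months. The labels do not say whether that age is the donors' or the recipients', nor whether animals were pooled or each library came from its own animal, so the p-values cover no more than the spread between these libraries, which may be technical.

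Glutathione is built from glutamate, cysteine and glycine. Cysteine enters many cells as cystine through the transporter whose light chain is Slc7a11, glutamate-cysteine ligase (the catalytic subunit Gclc with the modifier subunit Gclm) makes the dipeptide, and glutathione synthetase (Gss) adds glycine. Peroxidases of the Gpx family oxidise glutathione while they reduce peroxides, and glutathione reductase (Gsr) restores it with NADPH. In blood-forming tissue, low levels of reactive oxygen are known as a feature of resting stem cells. Several of these genes, Gclc, Gclm and Slc7a11 among them, are textbook targets of the transcription factor NRF2, and Slc7a11 is also one of ATF4.

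The sequences that bear on these genes are the microRNA that the inhibitor is directed against, the match to it in a member's transcript, and the promoters of the members with the largest changes. The mature microRNA (RefSeq, GRCm38.p6, the assembly of mm10, minus strand, chr4:88910614-88910635) is printed with its seed, bases 2 to 8, in capitals.
mmu-miR-31-5p: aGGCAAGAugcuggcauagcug
A perfect match to that seed (TCTTGCC) was found in the longest GENCODE 3′ UTR of 1 of the 9 members, beside 12.6% of the 12280 tested genes with a 3′ UTR. That member was Gclc (chromosome 9), where the match, in capitals, lies at bases 540 to 546 of the 1234-base 3′ UTR and is followed by an A.
Gclc 3′ UTR site: cagccccactcTCTTGCCactgaattctg
Promoter windows (RefSeq, GRCm38.p6, 250 bases before and 50 from a transcript's start on) were at hand for 7 of the 9 members. The start used for Slc7a11 (position 50443613) lies 55474 bases inside the 5′ end of the gene's RefSeq range, 1 base from a GENCODE transcript start, and that for Gclm (position 122245557) lies 70 bases inside, at a GENCODE start. Distances below are counted from these starts. They were searched on both strands for TGACNNNGC, the core of the antioxidant response element that NRF2 binds, and for TGATGNAA, the composite site of C/EBP and ATF factors. The first was in 12.4% and the second in 3.97% of all 32851 windows of that length. Counted by gene, the first was in 17.0% and the second in 2.89% of the 10324 tested genes with a window. Matches were found in Slc7a11 and Gclm, in which they do not overlap and are in capitals, and in no window of Gss, Gpx1, Gpx3, Gpx4 or Glrx.
Slc7a11 promoter (chr3:50443564-50443863, minus strand): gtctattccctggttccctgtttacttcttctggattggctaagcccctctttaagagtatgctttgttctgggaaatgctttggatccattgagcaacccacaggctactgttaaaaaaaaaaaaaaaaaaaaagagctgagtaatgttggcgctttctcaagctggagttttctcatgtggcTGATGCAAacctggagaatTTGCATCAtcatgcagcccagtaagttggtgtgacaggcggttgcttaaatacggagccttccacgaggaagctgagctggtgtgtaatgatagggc
Gclm promoter (chr3:122245307-122245606, plus strand): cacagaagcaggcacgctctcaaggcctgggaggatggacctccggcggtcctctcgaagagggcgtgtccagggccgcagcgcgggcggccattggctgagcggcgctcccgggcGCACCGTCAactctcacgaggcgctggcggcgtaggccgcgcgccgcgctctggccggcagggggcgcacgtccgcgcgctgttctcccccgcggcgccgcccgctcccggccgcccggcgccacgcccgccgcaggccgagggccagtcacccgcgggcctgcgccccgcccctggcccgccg
The Slc7a11 window held TGATGCAA at 66 to 59 bases before its start and again, on the opposite strand, at 47 to 40 bases before it. Of 10324 tested genes with a window, 7 (0.0678%) held 2 or more such matches. The Gclm window held TGACGGTGC on the opposite strand, at 134 to 126 bases before the start. A match is a description of these letters and not evidence of binding.

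Libraries held 16873188 to 19496200 counts in the inhibitor group and 19866738 to 21245861 in the control group. Control library 1 was unlike the remaining controls: chi-square values over genes, per degree of freedom, were 14.9 and 16.8 against them, and 7.55 between the other two. Inhibitor libraries differed less, at 3.04 to 4.24. The defining markers of the labelled cell type were uneven, since Kit averaged 406.2 CPM (counts scaled to library size) in the inhibitor group and 401.9 CPM in the control group, while Mecom averaged 0.38 and 0.64 CPM in those groups. Of 12 HSC and progenitor markers, 3 rose and 3 fell. Markers of other blood cells were also present. The summed level of 9 megakaryocyte and platelet markers was 4395 to 4504 CPM in inhibitor libraries and 1871 to 2145 CPM in control libraries, and all 9 rose. The sum of 10 monocyte and macrophage markers was 2022 to 2114 CPM in inhibitor and 3117 to 3212 CPM in control libraries, where Lyz2 made most of the difference. The sum of 9 neutrophil markers was 5720 to 5868 CPM in inhibitor and 6437 to 7295 CPM in control libraries, with 5 higher and 4 lower. The 4 lower were Elane, Prtn3, Ctsg and Mpo, which alone averaged 4315 CPM in the inhibitor group and 5202 CPM in the control group. The 5 higher were S100a8, at 124.0 and 40.3 CPM in those groups, S100a9, Ltf, Camp and Ngp. The 10 erythroid markers summed to 18.7 to 21.2 CPM in inhibitor and 5.83 to 7.43 CPM in control libraries. The 7 dendritic cell markers summed to 1690 to 1740 CPM in inhibitor and 1307 to 1486 CPM in control libraries, with 4 higher and 2 lower. The 2 lower were Ccr9, at a mean of 9.80 CPM in the inhibitor group and 66.9 CPM in the control group, and Siglech, at 64.0 and 97.2 CPM in those groups. The 5 mast cell and basophil markers summed to 709.6 to 782.4 CPM in inhibitor and 631.5 to 690.6 CPM in control libraries, with 2 higher and 1 lower. The 6 B cell markers summed to 9.81 to 10.5 CPM in inhibitor and 16.9 to 19.0 CPM in control libraries, and the 7 T and NK cell markers to 17.2 to 19.8 CPM in inhibitor and 24.0 to 27.4 CPM in control libraries. No marker on these lists was at 0 in all libraries. The part of cell makeup in the results below was not tested, and in bulk libraries fewer cells of a type and less RNA per cell cannot be told apart.

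The comparison asked how the glutathione genes differ in GFP+ marrow cells when the transplanted HSCs had received the miR-31-5p inhibitor. Genes of cystine import and glutathione synthesis were higher in the inhibitor group, most of all Slc7a11 and Gclm. The peroxidase gene Gpx4 was higher and Gpx1 slightly lower. All 9 members passed the filter on low counts. Of these, 5 rose (Slc7a11, Gclm, Gpx4, Gclc and Gss), 1 fell (Gpx1) and 3 did not pass an adjusted p of 0.05 (Gsr, Gpx3 and Glrx). Among all 12978 genes tested, 20.4% rose and 20.1% fell, so that 40.5% were called in either direction. Without control library 2, 3 members fell, Gsr and Gpx3 beside Gpx1. The median log2 change, here always inhibitor over control, was 0.36 over the 9 members and -0.01 over all genes tested. In 6 of the 9 members the inhibitor libraries lay wholly on one side of the control libraries, as they did in 52.4% of all genes tested.

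**Figure D1:**
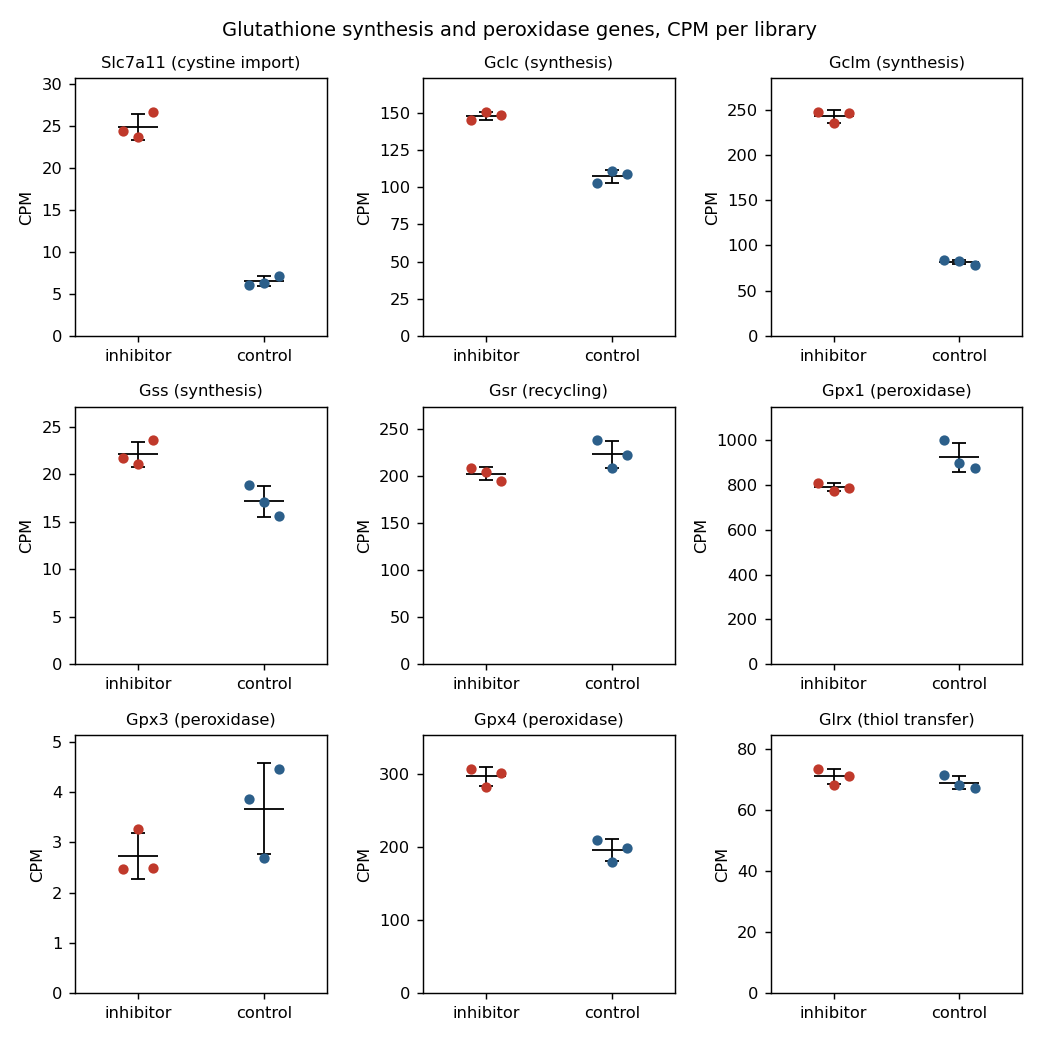
CPM (TMM-normalised counts, y axes from 0) of the 9 glutathione genes in each library, with inhibitor libraries left (red) and control libraries right (blue). Points are libraries 1 to 3 from left to right, and bars are the mean ± SD (n = 3). The groups lie apart in Slc7a11, Gclc, Gclm, Gss, Gpx1 and Gpx4 and overlap in Gsr, Gpx3 and Glrx.

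Slc7a11, the cystine-glutamate exchanger xCT (chromosome 3, 50364936 to 50499087), had 24.4, 23.7 and 26.7 CPM in inhibitor libraries 1 to 3, against 6.03, 6.35 and 7.19 CPM in control libraries 1 to 3. Every inhibitor library was above every control library, and the controls rested on 120 to 153 counts each. The change was 3.82-fold, or 1.93 ± 0.11 on the log2 scale (± SE here and below), with an adjusted p = 2.65e-09 (quasi-likelihood test of edgeR, p adjusted by Benjamini-Hochberg over all genes tested). Slc3a2, the heavy chain with which xCT reaches the membrane, was named after its values were seen. It averaged 207.1 ± 1.40 CPM in the inhibitor group and 182.1 ± 16.8 CPM in the control group (SD, n = 3 each), a log2 change of 0.19 ± 0.06 (adjusted p = 0.0294, same edgeR test).

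Gclm, the modifier subunit that raises the efficiency of glutamate-cysteine ligase (chromosome 3, 122245487 to 122267215), had 247.3, 234.7 and 245.9 CPM in inhibitor libraries 1 to 3, against 83.8, 82.7 and 78.9 CPM in control libraries 1 to 3. The spread within either group was small beside the distance between them. The change was 2.97-fold, or 1.57 ± 0.06 (adjusted p = 8.50e-12, edgeR quasi-likelihood test, Benjamini-Hochberg). Gclc, the catalytic subunit (chromosome 9, 77754535 to 77794489), had 144.8, 150.4 and 148.4 CPM in inhibitor libraries, against 102.5, 110.9 and 108.6 CPM in control libraries. The groups did not overlap, and the change was 1.38-fold, or 0.46 ± 0.06 (adjusted p = 9.11e-06, same edgeR test). Gclc is the member with the seed match printed above.

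The ratio of the ligase's subunits lay apart between the groups. Per kilobase of transcript, Gclm stood to Gclc as 2.99, 2.74 and 2.90 to 1 in inhibitor libraries 1 to 3, against 1.43, 1.31 and 1.27 in control libraries 1 to 3. This ratio within a library does not depend on how libraries are scaled. It was 2.15 times as high in the inhibitor group, with a two-sided exact permutation p = 0.1, the smallest that 3 libraries against 3 allow. The absolute ratio depends on transcript length, for which the deposited value of Gclm was 2072 bases, while the longest GENCODE transcript has 5589.

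Gss, glutathione synthetase (chromosome 2, 155563181 to 155592810), had 21.7, 21.1 and 23.6 CPM in inhibitor libraries, against 18.9, 17.1 and 15.6 CPM in control libraries. The groups lay apart, though by less than for the other synthesis genes. The change was 1.29-fold, or 0.36 ± 0.10 (adjusted p = 0.0104, edgeR quasi-likelihood test, Benjamini-Hochberg). The call was lost without control library 3 (0.30, adjusted p = 0.0566) and without inhibitor library 3 (0.32, adjusted p = 0.0507), each in the same edgeR test, and the range over its 16 alternatives was 0.00045 to 0.0566. RefSeq lists the antisense gene Gssos2 across Gss, and without a stated strand of counting their reads cannot be told apart. RefSeq also lists non-coding genes or pseudogenes that overlap Gclm, Gsr and Glrx, and pseudogenes of Gpx4 elsewhere, so a share of these genes' reads is uncertain in the same way.

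Gsr, glutathione reductase (chromosome 8, 33653238 to 33698162), had 209.2, 204.9 and 195.1 CPM in inhibitor libraries, against 238.2, 209.2 and 223.0 CPM in control libraries. Inhibitor library 1 and control library 2 were level, so the groups touched. The log2 change of -0.14 ± 0.06 had a 95% interval of -0.26 to -0.01 and did not pass (adjusted p = 0.0750, edgeR quasi-likelihood test, Benjamini-Hochberg). It passed without control library 2 (-0.18, adjusted p = 0.0312), and was -0.05 without control libraries 1 and 3 (adjusted p = 0.616), in the same edgeR test, with a range over its alternatives of 0.0312 to 0.616. Glrx, the glutaredoxin that removes glutathione from protein thiols (chromosome 13, 75839885 to 75850151), had 73.4, 68.2 and 71.2 CPM in inhibitor libraries, against 71.4, 68.2 and 67.3 CPM in control libraries. These ranges overlapped in part, and the change of 0.04 ± 0.06 had a 95% interval of -0.09 to 0.17 (adjusted p = 0.62, same edgeR test).

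**Figure D2:**
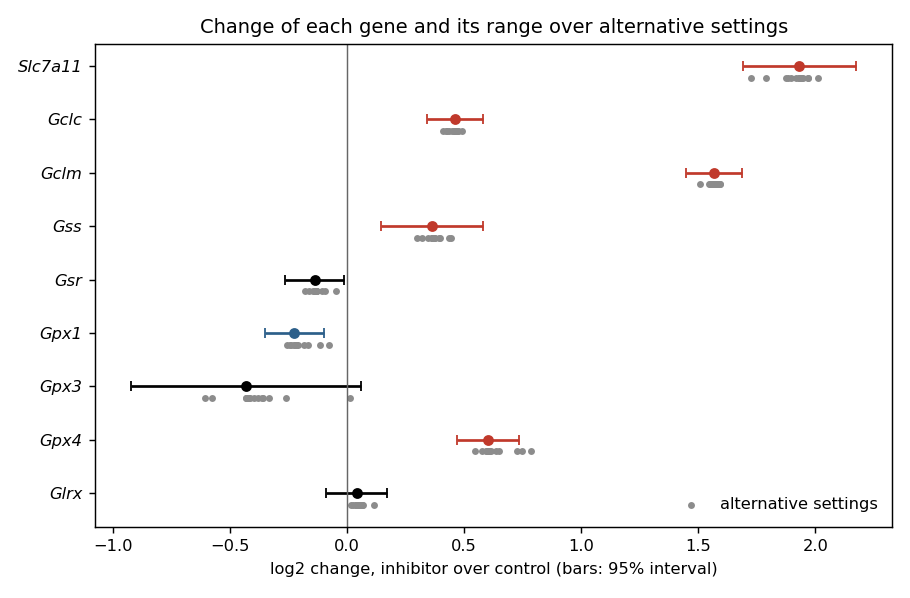
Log2 change of each gene, inhibitor over control (x axis), with its 95% interval (bars). Red marks genes higher and blue genes lower past an adjusted p of 0.05, black those that did not pass, and the small grey points are the changes under the 16 alternative settings. Slc7a11 (1.73 to 2.01) and Gclm (1.51 to 1.59) stay far from 0, while Gpx3 spans 0 (-0.60 to 0.01).

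The peroxidases, all of them selenoproteins, moved in different directions. Gpx4, which reduces lipid peroxides within membranes and is known as a guard against ferroptosis (chromosome 10, 80047166 to 80056439), had 307.6, 283.1 and 302.1 CPM in inhibitor libraries, against 209.7, 179.7 and 198.7 CPM in control libraries. Every inhibitor library was above every control library. The change was 1.52-fold, or 0.60 ± 0.06 (adjusted p = 1.94e-06, edgeR quasi-likelihood test, Benjamini-Hochberg).

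Gpx1, the abundant soluble peroxidase of the cytosol and mitochondria (chromosome 9, 108339080 to 108340342), had 808.0, 772.0 and 786.4 CPM in inhibitor libraries, against 996.0, 894.0 and 873.2 CPM in control libraries. Every inhibitor library was below every control library, and control library 1 was the highest. The level was 1.17-fold lower, a log2 change of -0.22 ± 0.06 (adjusted p = 0.00664, edgeR quasi-likelihood test, Benjamini-Hochberg). After a correction of each library for transcript length the change was -0.12 (adjusted p = 0.0372), and after one for GC content and length, added after seeing the data, the call was lost (-0.08, adjusted p = 0.141), in the same edgeR test with a range over alternatives of 0.00028 to 0.141. Gpx1 and Gpx4 have short transcripts (1042 and 788 bases), and Gpx4 stood at 0.75 and 0.78 under these corrections.

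Gpx3, the secreted peroxidase of plasma (chromosome 11, 54902854 to 54910387), was a low-count gene with 48, 56 and 42 counts in inhibitor libraries, against 77, 54 and 95 counts in control libraries. Control library 2 fell among the inhibitor libraries. The log2 change of -0.43 ± 0.23 did not pass (95% interval -0.92 to 0.06, adjusted p = 0.15, edgeR quasi-likelihood test, Benjamini-Hochberg). It was -0.60 without control library 2 (adjusted p = 0.0462) and 0.01 without control libraries 1 and 3 (adjusted p = 0.982), in the same edgeR test, with a range over its alternatives of 0.0462 to 0.982. Of the other family members, Gpx2, Gpx5 and Gpx6 had 0 counts in all libraries, and Gpx7 and Gpx8, with 58 and 97 counts in all, had log2 changes of 0.09 ± 0.47 and -0.08 ± 0.35 that did not pass.

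The balance of the abundant peroxidases within a library also lay apart between the groups. Per kilobase, Gpx4 stood to Gpx1 as 0.503, 0.485 and 0.508 to 1 in inhibitor libraries 1 to 3, against 0.278, 0.266 and 0.301 in control libraries 1 to 3. The ratio was 1.77 times as high in the inhibitor group (two-sided exact permutation p = 0.1, the smallest possible), and this pair was chosen after its values were seen. The ratio of Gsr to Gpx1, the recycling enzyme against the soluble peroxidase, was 0.101, 0.104 and 0.0968 in inhibitor libraries, against 0.0933, 0.0912 and 0.0996 in control libraries. These ranges overlapped, and the exact permutation p was 0.2.

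**Figure D3:**
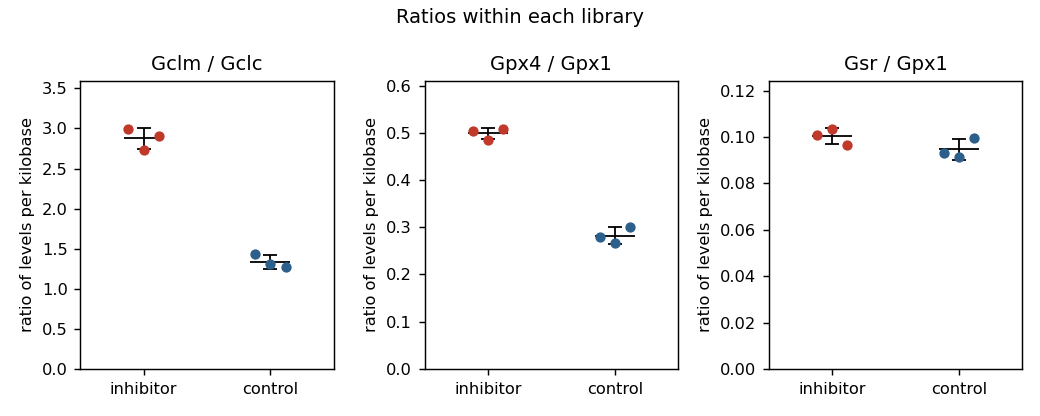
Ratios of levels per kilobase within each library (y axes from 0), inhibitor libraries left (red) and control libraries right (blue), with the mean ± SD (n = 3). Gclm over Gclc and Gpx4 over Gpx1 lie apart between groups, and Gsr over Gpx1 overlaps.

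Levels per kilobase of the deposited transcript length (CPM per kilobase) spanned 447.4-fold over the members in the inhibitor group and 1251-fold in the control group. Gpx1 was highest in both, at 757.0 ± 17.4 in the inhibitor group and 883.9 ± 63.1 in the control group (SD, n = 3 each), followed by Gpx4 at 377.6 ± 16.3 and 248.8 ± 19.3 in those groups. Gclm stood at 117.1 ± 3.34 in the inhibitor group and 39.5 ± 1.23 in the control group, and its place among the members depends on the length used. In the inhibitor group Gsr (76.0 ± 2.69), Glrx (53.6 ± 1.95), Gclc (40.7 ± 0.77) and Gss (11.3 ± 0.66) followed, then Slc7a11 (2.70 ± 0.17) and Gpx3 (1.69 ± 0.28). In the control group the order was Gsr (83.6 ± 5.43), Glrx (52.1 ± 1.62), Gclc (29.6 ± 1.21), Gss (8.76 ± 0.83), Gpx3 (2.27 ± 0.56) and Slc7a11 (0.71 ± 0.07). With the deposited lengths no neighbours in either order overlapped over their 3 libraries. Gclm came before Gsr in the inhibitor group and between Glrx and Gclc in the control group at its deposited length of 2072 bases. With the longest GENCODE transcripts (5589 bases for Gclm), an alternative added after seeing the data, Gclm was at 43.4 ± 1.24 in the inhibitor group, where it lay below Gsr and Glrx and overlapped Gclc (43.2 ± 0.82). In the control group it was then at 14.6 ± 0.46, below Gclc (31.4 ± 1.28). The remaining members kept their order under both lengths. The place of Slc7a11 depends on its 9227-base transcript, by which its counts are divided.

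**Figure D4:**
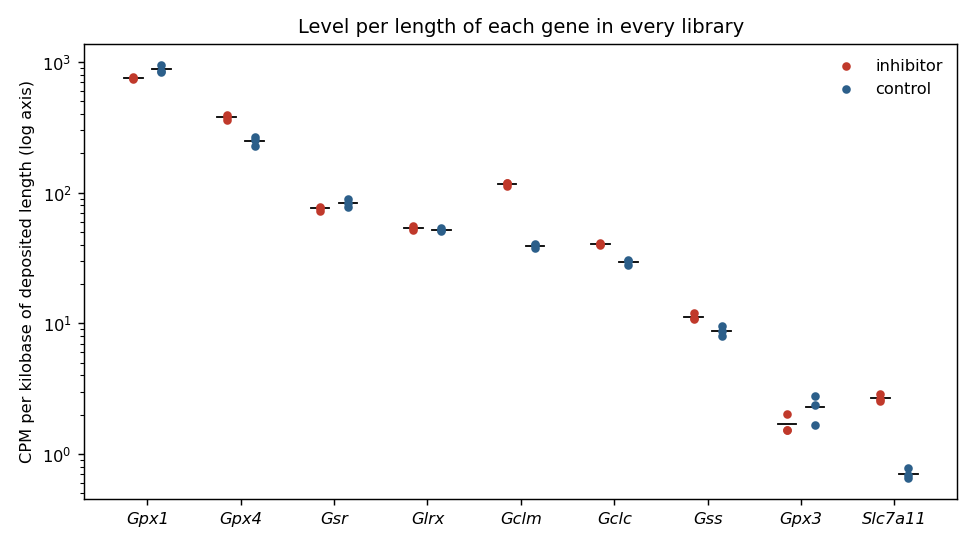
Level per length of each gene (CPM per kilobase of the deposited length, log axis) in each inhibitor library (red, left) and control library (blue, right), with group means as black lines, ordered by the control level. Slc7a11 lies above Gpx3 in the inhibitor group and below it in the control group. Gclm lies above Gsr and Glrx in the inhibitor group at its deposited length of 2072 bases but below both at 5589 bases.

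Of 39 other genes of glutathione metabolism listed, 31 were tested, and 8 rose, 6 fell and 17 missed the threshold (median -0.02). The shares that rose (25.8%) and fell (19.4%) were near those of all genes tested (20.4% and 20.1%). The number that fell was 3 without inhibitor library 2 and 2 without control libraries 1 and 3. Anpep, an aminopeptidase that can split the dipeptide from broken-down glutathione at the cell surface, averaged 89.2 ± 4.24 CPM in the inhibitor group and 39.2 ± 1.90 CPM in the control group (SD, n = 3 each), a log2 change of 1.19 ± 0.07. Esd, which hydrolyses S-formylglutathione, rose by 0.77 ± 0.06, Dpep2, a dipeptidase, by 0.66 ± 0.09, and Abcc1, an exporter of glutathione and its conjugates, by 0.37 ± 0.05. Chac1, which degrades glutathione inside the cell, had 28, 35 and 24 counts in inhibitor libraries, against 9, 10 and 12 counts in control libraries, a change of 1.67 ± 0.35. The adjusted p of these 5 genes was between 1.60e-09 (Anpep) and 0.00143 (Chac1) in edgeR quasi-likelihood test, Benjamini-Hochberg. Other peptidase genes of the list fell, and were named after their values were seen. Cndp2, a dipeptidase that can split cysteinylglycine, averaged 97.5 ± 4.45 CPM in the inhibitor group and 121.1 ± 17.0 CPM in the control group (SD, n = 3 each), a change of -0.31 ± 0.08 (adjusted p = 0.009, same edgeR test). Lap3, a leucine aminopeptidase, averaged 44.4 ± 1.02 CPM in the inhibitor group and 52.1 ± 4.30 CPM in the control group (SD, n = 3 each), a change of -0.23 ± 0.07 (adjusted p = 0.0229, same edgeR test).

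Selenium handling and selenocysteine insertion, on which Gpx1, Gpx3 and Gpx4 depend, were covered by a list of 14 genes, all of them tested. Of these, 1 rose (7.14%), 4 fell (28.6%) and 9 did not pass (median -0.05). The shares of all genes tested that rose and fell were 20.4% and 20.1%. Secisbp2, Eefsec, Pstk, Sepsecs and Trnau1ap, which serve the insertion and charging steps, were named after their values were seen. Their changes were -0.20 to 0.22 and did not pass (adjusted p of 0.142 to 0.841, edgeR quasi-likelihood test, Benjamini-Hochberg). Secisbp2l, a paralog of Secisbp2, rose by 0.29 ± 0.07, and without control library 1 there were 2 that rose. Sephs2, which makes the selenium donor, was at 126.2 ± 2.77 CPM in the inhibitor group and 148.3 ± 8.47 CPM in the control group (SD, n = 3 each), a change of -0.23 ± 0.06. Lrp8, a receptor for the selenium carrier selenoprotein P, changed by -0.41 ± 0.08 and the selenium-binding protein gene Selenbp1 by -0.64 ± 0.13, both of them falls past the threshold, as was the change of the ribosomal protein gene Rpl30 (-0.21 ± 0.07).

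Of 32 other NRF2 target genes listed, 30 were tested, of which 18 rose (60.0%), 5 fell (16.7%) and 7 missed the threshold (median 0.53). Among all genes tested, 20.4% rose and 20.1% fell. Hmox1 (2.17 ± 0.07), Me1 (1.83 ± 0.17), Nqo1 (1.66 ± 0.14) and Fth1 (0.86 ± 0.05) were among those that rose. Srxn1, sulfiredoxin, averaged 286.8 ± 2.95 CPM in the inhibitor group and 71.8 ± 5.78 CPM in the control group (SD, n = 3 each). Also higher were the low-count genes Akr1b8 (2.23 ± 0.26), Cbr3 (1.51 ± 0.27), Osgin1 (1.39 ± 0.18) and Ephx1 (1.12 ± 0.20), and the transferase genes Gsta1, Gsta2 and Gsta3, whose near-identical copies make their counts uncertain. The 5 that fell were named after their values were seen. They were Txn1 (-0.38), Idh1 (-0.36), Tkt (-0.30), Gstp1 (-0.25) and Ugdh (-0.19). Without inhibitor library 2, 3 fell. Of the 6 regulator genes 1 passed the threshold. That gene, Nfe2l2, which encodes NRF2, fell to 202.4 ± 4.57 CPM in the inhibitor group, against 243.4 ± 5.48 CPM in the control group (SD, n = 3 each), a log2 change of -0.27 ± 0.05 (adjusted p = 0.000825, edgeR quasi-likelihood test, Benjamini-Hochberg). The changes of Keap1, which marks NRF2 for degradation, of the repressor gene Bach1 and of Mafg, Mafk and Maff were -0.11 to 0.20 and did not pass.

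The genes of the ATF4 amino acid response, to which Slc7a11 also belongs, were all tested. Of 28 listed, 5 rose (17.9%), 11 fell (39.3%) and 12 did not pass (median -0.09), beside 20.4% that rose and 20.1% that fell among all genes tested. Vldlr (1.32 ± 0.07), Atf3 (0.89 ± 0.08) and, at few counts, Trib3 (1.31 ± 0.31) and Aldh1l2 (1.48 ± 0.45) rose. The serine synthesis genes Phgdh (-0.61 ± 0.06) and Psat1 (-0.36 ± 0.05) fell, as did Nupr1 (-1.80 ± 0.30) and, named after its values were seen, Atf4 itself (-0.43 ± 0.08). The call of Aldh1l2 was lost without inhibitor library 3 (1.14, adjusted p = 0.103, edgeR quasi-likelihood test, Benjamini-Hochberg). It was also lost without control libraries 1 and 3, where a lone control library was left and the change was 1.52. A stricter filter on low counts left Aldh1l2 out.

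**Figure D5:**
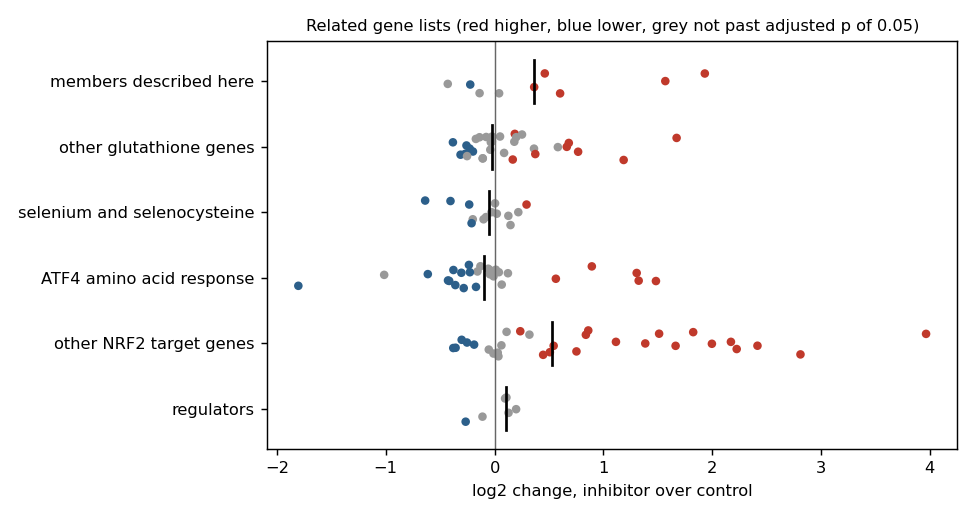
Log2 change, inhibitor over control (x axis), of each tested gene in the 9 members and in 5 related lists. Red genes were higher and blue genes lower past an adjusted p of 0.05, grey ones did not pass, and black lines are medians. The members' median is 0.36 and that of the other NRF2 targets 0.53, with the remaining medians between -0.09 and 0.10.

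The genes most like Gclm over the 6 libraries, by Euclidean distance between centred log2 CPM values among 12175 genes, were the thrombin receptor gene F2r (distance 0.104, log2 change 1.64), Gpnmb (0.124, 1.60) and the neutrophil calprotectin gene S100a8 (0.137, 1.62). Those most like Gpx1 were the leucine aminopeptidase gene Lap3 (0.0297, -0.23), the mediator subunit gene Med8 (0.0369, -0.23) and the adaptor gene Myd88 (0.0385, -0.21). This distance includes the difference between the groups, so genes near a member have nearly its log2 change by construction.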

How the data were processed

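RNA from GFP+ marrow cells had been extracted with Trizol and made into libraries with an mRNA kit, per the labels. The authors deposited read counts per RefSeq symbol, summed over its transcripts and not normalised, and RPKM values made, per the file headers, from the longest transcript's length, which is also deposited. RPKM was used to check counts and as an alternative scale for the ratios within a library. Its totals exceeded summed counts by 8.68% in control library 3 and 2.82% in control library 1. The excess was 0.22 to 0.49% in the remaining libraries. An alternative setting left out both of these control libraries, 1 and 3. The submitters' processing notes name mm10 and bcl2fastq 2.20. For the aligner, counter and strand, nothing is stated: they are not given in the sources used. In the deposited files, 3 counts equal 0.141 to 0.178 CPM; counting floors cover counting error only.

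Genes were kept by filterByExpr (minimum count 10, minimum total 15), scaled by TMM and fitted in R 4.3.3 by the quasi-likelihood method of edgeR 4.0.16 (robust), with p-values adjusted by Benjamini-Hochberg over all 12978 genes and called at 0.05. SE is the log2 change over the root of F. The fit was tested on simulated data. Ratios were tested by exact permutation in Python 3.11.15. GENCODE M21 gave 3′ UTRs and GC content (accessions matched 24264 genes, symbols 435, and 334 had no match).

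The members and lists were chosen with earlier results of these data known. Named by rule are all members, up to 4 genes with the smallest p of each list and those changed by at least 1 on the log2 scale, the 6 regulators, and the 3 genes nearest to the most significant member in each direction. Other genes named in the text lie outside this rule and were named after their values were seen. Alternatives were RLE factors, no filter and a stricter filter (1 CPM, mean of 10 counts), libraries left out, a block for the replicate number, DESeq2 1.42.0, limma 3.58.1 voom, loess corrections (span 0.4) for length or, added later, GC content and length, and thinning to the smallest total.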

Additional observations from a re-analysis of the deposited data

How the results depend on the processing

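Over the 16 alternatives, the 9 members' log2 changes kept direction and side of the threshold in 136 of 144 values. Slc7a11, Gclm, Gclc and Gpx4 passed in all 16. Of the other 8, Gpx1 lost its call with the GC and length correction (-0.076), Gss lost it without inhibitor library 3 and without control library 3, Gpx3 changed sign without control libraries 1 and 3 (0.014, not past the threshold) and passed without control library 2, and Gsr passed without control library 2, with the length correction (-0.13) and with the GC and length correction (-0.13). Leaving out single libraries gave 0.30 to 0.43 for Gss, -0.18 to -0.091 for Gsr and -0.60 to -0.26 for Gpx3, with 4 to 5 members higher and 1 to 3 lower. With the length correction 2 members were lower. Leaving out single libraries, 3 to 6 other glutathione genes and 3 to 5 other NRF2 targets were lower, and 1 to 2 selenium and selenocysteine genes and 0 to 1 regulators were higher. Without control libraries 1 and 3, 2 other glutathione genes were lower and Keap1 was at 0.043, not past the threshold. With the length correction 1 regulator was higher, and with the GC and length correction 1 regulator and 2 selenium and selenocysteine genes. The causes were not tested.

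The replicate number as a block changed no member's call and gave 5673 genes past the threshold, against 5259 without it. The same-numbered libraries' deviations correlated at 0.11, -0.01 and 0.02, and not every library matched its own number best, so the numbers were not taken as pairs. Leaving out single libraries gave 4058 to 5692 genes past the threshold. With control libraries 1 and 3 left out, the lone control is assumed to vary like the inhibitor libraries. Depth limits Gpx3 most, at 42 to 95 counts a library.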
